A study of Rattus norvegicus with 38 samples.

Results

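Gene expression in laser-cut cortical blood vessels was compared between SHRSP and Wistar rats at the early stage, 24 to 25 weeks of age. The 10 libraries, 5 from SHRSP and 5 from Wistar animals, were chosen by their labels and were part of 38 libraries from 19 numbered animals. The other libraries came from vessels at the late stage, 32 to 34 weeks, and from clusters of cortical neurons of the same animals at both stages. SHRSP rats are an inbred line that becomes hypertensive and prone to stroke, whereas Wistar is an outbred stock, and the series asks how the expression signature of hypertension depends on its stage. No treatment, transgene or pooling of animals was given for either group, and blood pressure, sex and the way vessels were picked for cutting were not given in the sources used here. Strain and hypertension therefore cannot be told apart in this comparison.

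Cortical vessels are lined by endothelial cells, which form the blood-brain barrier through tight junctions and selective transporters. Around them lie smooth muscle cells in arteries and arterioles, pericytes along capillaries, and a basement membrane that astrocyte endfeet contact from the brain side. In chronic hypertension, the walls of brain arteries are known to thicken and their lumen to narrow, and SHRSP rats are used as a model of this and of stroke. The deposited table gives Ensembl gene IDs (IDs below) without gene names, and 0 of its 32883 IDs matched the reference tables. Cell type markers could therefore not be looked up, and the IDs below carry no role.

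Totals lay between 1612966 and 3097536 counts in SHRSP vessels and between 2633327 and 3998154 in Wistar vessels. The number of IDs with at least 1 count was 6088, 4104, 5745, 10207 and 6549 in SHRSP animals 374, 377, 380, 383 and 386. In Wistar animals 340, 343, 346, 349 and 368 it was 8752, 6453, 5833, 11754 and 6543. SHRSP animal 383 and Wistar animal 349 thus held the most IDs of their groups, and SHRSP animal 377 the fewest of all. The means were 6539 ± 2248 and 7867 ± 2438 IDs (SD, n = 5 each; exact permutation test, two-sided, p = 0.389). Between 6.45% and 17.7% of SHRSP counts and between 9.73% and 40.6% of Wistar counts fell on the most abundant ID, ENSRNOG00000043866, with the highest share again in animals 383 and 349. Its mean share was 9.20% ± 4.77 in SHRSP and 18.6% ± 12.5 in Wistar vessels (exact permutation test, two-sided, p = 0.103, adjusted p = 0.206 over 4 library measures). The exact p of this difference was 0.0286 without animals 349 and 383, 0.0238 without animal 383 alone and 0.0397 without Wistar animal 368. In the other 8 of 11 alternatives the exact p ran from 0.103 to 0.214. The main results below were also computed without animals 349 and 383.

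To check the material without gene names, IDs enriched in vessels or in neurons were taken from the 9 late animals, none of which has a library in this comparison. An ID was vessel-enriched or neuron-enriched where vessels and neurons of the late animals differed with an adjusted p under 0.05 and a log2 fold of at least 1. The 780 vessel-enriched IDs took 4.24% to 14.0% of the counts in the early vessel libraries, against 2.08% to 3.23% in the neuron libraries of the same 10 animals. The 629 neuron-enriched IDs took 2.79% to 4.62% in vessels and 6.46% to 7.78% in neurons. All 10 vessel libraries therefore stood on the vessel side of the neuron libraries in both measures.

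The share of counts in vessel-enriched IDs differed between the strains. It was 14.0%, 12.7%, 12.5%, 12.4% and 12.1% in SHRSP animals 374, 377, 380, 383 and 386. It was 4.24%, 5.01%, 5.16%, 4.82% and 10.6% in Wistar animals 340, 343, 346, 349 and 368. Every SHRSP library lay above every Wistar library, and Wistar animal 368 was closest to the SHRSP range. The means were 12.8% ± 0.754 in SHRSP and 5.98% ± 2.63 in Wistar vessels (SD, n = 5 each; exact permutation test, two-sided, p = 0.00794, the smallest that 5 against 5 allows; adjusted p = 0.0317 over 4 measures). Without animals 349 and 383 the difference was 6.57 percentage points (exact permutation test, p = 0.0286, the smallest that the remaining animals allow). With the most abundant ID left out of the totals it was 6.74 percentage points. The share of neuron-enriched IDs averaged 3.23% ± 0.296 in SHRSP and 3.55% ± 0.778 in Wistar vessels (exact permutation test, p = 0.468). In such tissue pieces, more vessel cells and more RNA of these genes per cell cannot be told apart.

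**Figure D1:**
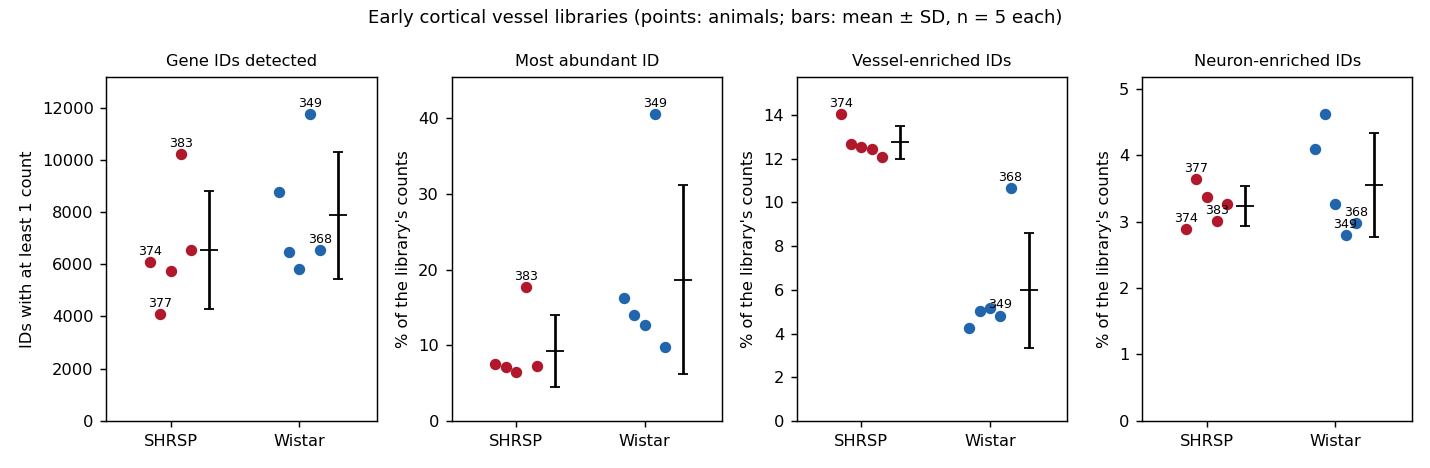
Values of the 10 early vessel libraries by strain: IDs detected, the share of counts in the most abundant ID, and the shares in vessel-enriched and neuron-enriched IDs in percent. Points are animals, some labelled by number, and bars are the mean ± SD of 5; the vessel-enriched share lies at 12.1% or above in SHRSP and at 10.6% or below in Wistar animals.

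The higher share was spread over many IDs. The 10 vessel-enriched IDs with the highest level in late vessels together took 2.74% ± 0.322 of the counts in SHRSP and 1.30% ± 0.557 in Wistar vessels (SD, n = 5 each). The other 770 took 10.02% ± 0.555 in SHRSP and 4.68% ± 2.08 in Wistar vessels. In both parts all 5 SHRSP libraries lay above all 5 Wistar libraries. The number of IDs that together held 50% of a library's counts averaged 255.8 ± 42.4 in SHRSP and 131 ± 94.3 in Wistar animals. The ranges overlapped, at 217 to 302 IDs in SHRSP and 3 to 229 in Wistar animals, the lowest being animal 349.

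Gene by gene, 9 of 5795 IDs tested differed between the strains in edgeR at an adjusted p under 0.05, which is 0.155% (an ID that passed is a call below). Of these, 7 were higher in SHRSP (0.121%) and 2 were lower (0.0345%). All 7 higher calls were vessel-enriched in the late animals, with log2 folds of vessels over neurons from 1.81 to 6.55. The share of vessel-enriched IDs was itself higher in every SHRSP library, and its part in these calls was not tested. Both lower calls were in neither list, at log2 folds of 0.69 and -0.70 between the materials. In 8 of the 9 the strains did not overlap. Over all IDs tested, 0.466% had all SHRSP libraries above and 0.966% all below the Wistar libraries. The 9 were chosen by their difference in these same libraries, so their separation adds no support. The text names the 2 higher and the 2 lower IDs with the smallest p and gives the other 5 by their order of p. Levels are CPM, counts scaled to a common library total after TMM adjustment (edgeR's correction for library composition), and every fold is SHRSP over Wistar.

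ENSRNOG00000038999 was the higher call with the smallest p. It stood at 1453, 2396, 593, 693 and 706 CPM in SHRSP animals 374, 377, 380, 383 and 386. In Wistar animals 340, 343, 346, 349 and 368 it stood at 16.2, 303, 4.50, 28.5 and 112 CPM. The lowest SHRSP value was above the highest Wistar value, and within Wistar the animals ranged widely. Its mean difference was 12.6-fold, higher in SHRSP (log2 fold of 3.65 with an SE of 0.58, adjusted p = 1.18e-05). Without animals 349 and 383 the log2 fold was 3.6 (adjusted p = 3.87e-05). Wistar animal 343 moved it most among single animals, to a log2 fold of 4.97 when that animal was left out (adjusted p = 4.95e-11).

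ENSRNOG00000054890 measured 2658, 1072, 1502, 1498 and 1229.85 CPM in SHRSP animals 374, 377, 380, 383 and 386. It measured 156, 198, 224, 323 and 621 CPM in Wistar animals 340, 343, 346, 349 and 368. SHRSP animal 374 was highest, and Wistar animal 368 was again nearest to the SHRSP animals. SHRSP vessels were 5.23-fold higher, a log2 fold of 2.39 (SE 0.42, adjusted p = 1.79e-05). In the late animals it was among the more strongly vessel-enriched IDs, with a log2 fold of 5.39 between the materials. The log2 strain fold was 2.44 without animals 349 and 383 (adjusted p = 0.000609).

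The remaining higher calls ranged from 2.91-fold to 7.14-fold. Most of these folds were larger without Wistar animal 368. The log2 fold was then 3.93 for the third, against 2.84, and 2.90 for the fifth, against 1.97. It was 2.27 for the sixth, against 1.78, and 1.74 for the fourth, against 1.54. For the seventh it was slightly smaller, at 1.57 against 1.64. The third in order of p averaged 1140.36 ± 453 CPM in SHRSP and 160 ± 190 CPM in Wistar vessels (log2 fold 2.84, SE 0.51, adjusted p = 4.63e-05) and had the highest vessel enrichment of the 9 calls in late animals. The fourth averaged 2525 ± 1481 CPM in SHRSP and 866 ± 361 CPM in Wistar vessels (log2 fold 1.54, adjusted p = 0.00125), with 4974 CPM in SHRSP animal 374 alone. Without that animal its log2 fold was 1.22 and did not pass (adjusted p = 0.334). The fifth averaged 1326 ± 741 CPM in SHRSP and 338 ± 347 CPM in Wistar vessels (log2 fold 1.97, adjusted p = 0.00535). It was the call whose groups overlapped: Wistar animal 368, at 952 CPM, exceeded SHRSP animals 374 and 377, at 753 and 581 CPM. The sixth averaged 1475 ± 715 CPM in SHRSP and 429 ± 232 CPM in Wistar vessels (log2 fold 1.78, adjusted p = 0.00822), and its groups nearly touched, with 834 CPM in SHRSP animal 386 and 833 CPM in Wistar animal 368. The seventh averaged 1381 ± 390.4 CPM in SHRSP and 443 ± 231 CPM in Wistar vessels (log2 fold 1.64, adjusted p = 0.0451). The fifth and the seventh did not pass without animals 349 and 383 (adjusted p = 0.0682 and 0.0669), at log2 folds of 1.89 and 1.90.

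The fifth, the sixth and the seventh higher call did not pass without certain single animals, while their folds stayed of similar size. Where they did not pass, the log2 folds ran from 1.66 to 1.89 for the fifth, from 1.74 to 1.82 for the sixth and from 1.52 to 1.71 for the seventh. Without SHRSP animal 380, the adjusted p of the fifth, sixth and seventh higher calls was 0.407, 0.0513 and 0.128. Without Wistar animal 340 it was 0.0605, 0.0605 and 0.126, without animal 343 it was 0.11, 0.0509 and 0.394, and without animal 346 it was 0.0746, 0.0714 and 0.127. The seventh also did not pass without SHRSP animal 383 or 386 (adjusted p = 0.159 and 0.354) or without Wistar animal 368 (adjusted p = 0.218). The first, the second and the third passed whichever single animal was left out, with an adjusted p of at most 0.00679, 0.00451 and 0.00255.

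Of the lower calls, ENSRNOG00000031033 was the more abundant, at rank 10 of the 5795 IDs tested by mean level. It stood at 5736, 5319.91, 7728, 5603 and 7726 CPM in SHRSP animals 374, 377, 380, 383 and 386. In Wistar animals 340, 343, 346, 349 and 368 it stood at 11306, 8439.71, 21803, 10214 and 11269 CPM. The groups did not overlap, and Wistar animal 346 was far above the other 4. The level was 1.96-fold lower in SHRSP (log2 fold -0.97, SE 0.17, adjusted p = 1.18e-05). Without Wistar animal 346 it did not pass (log2 fold -0.66, adjusted p = 0.127), nor with the scaling of DESeq2 (log2 fold -0.68, adjusted p = 0.888).

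ENSRNOG00000036802 measured 95.2, 215, 128, 207 and 287 CPM in SHRSP animals 374, 377, 380, 383 and 386. It measured 1122, 1794, 783, 746 and 649 CPM in Wistar animals 340, 343, 346, 349 and 368. The highest SHRSP value, 287 CPM, was well under the lowest Wistar value, 649 CPM. The level was 5.46-fold lower in SHRSP (log2 fold -2.45, SE 0.52, adjusted p = 0.00258). It did not pass without Wistar animal 340 (log2 fold -2.35, adjusted p = 0.0723) or 343 (log2 fold -2.09, adjusted p = 0.480), or with the scaling of DESeq2 (log2 fold -2.08, adjusted p = 0.230).

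**Figure D2:**
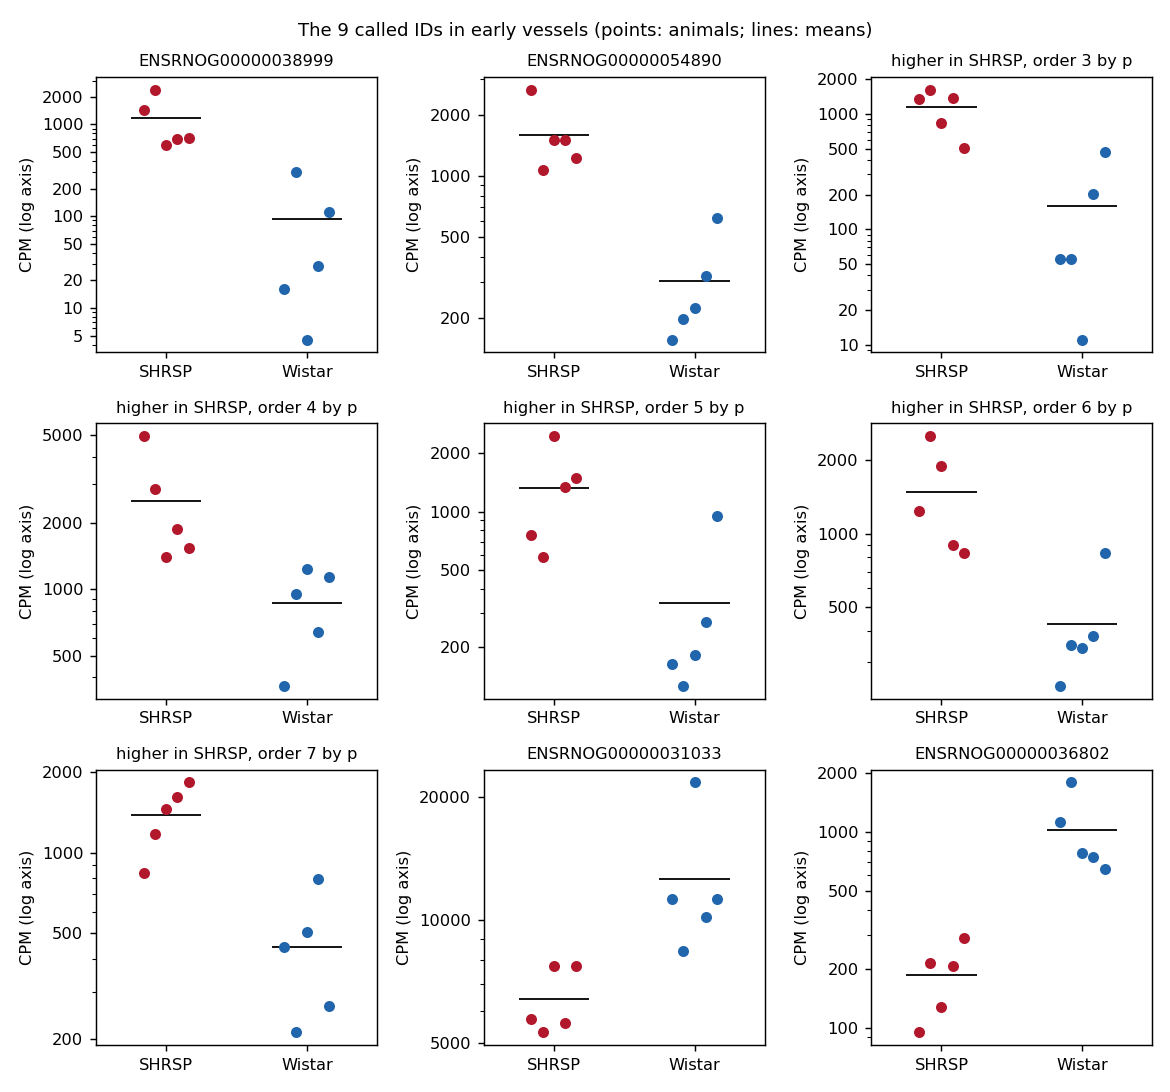
Levels in CPM, on a log axis, of the 9 called IDs in the early vessel libraries of SHRSP and Wistar animals. Points are animals and lines are group means; the groups overlap in 1 of the 9, the fifth higher call in order of p.

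The number of calls was small and moved with single animals and with the tool. It was 5 without Wistar animal 346 and 17 without Wistar animal 368, 15 of them higher in SHRSP. With animals 349 and 383 left out together 11 passed, 7 higher and 4 lower, and 7 of the 9 calls were among them. The scaling of DESeq2 gave 17 higher and 1 lower, against 7 and 2. Among them were 6 of the 9 calls and neither of the 2 lower calls. The median log2 fold of all IDs was then 0.16, against -0.04 with TMM. Limma voom gave 2 calls, of which 1 was among the 9. This was the seventh higher call (limma voom, adjusted p = 0.0479), which failed in 11 of 21 alternatives. The Wald test of DESeq2 called 11 IDs, all higher in SHRSP, and kept 5 of the 9. When the filter on low counts was dropped, 6 IDs passed, again all higher, and 3 of the 9 were kept. Neither lower call passed in limma voom, in the Wald test or in the unfiltered fit. The fit over all 19 vessel libraries gave 28 calls, with all 9 among them.

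**Figure D3:**
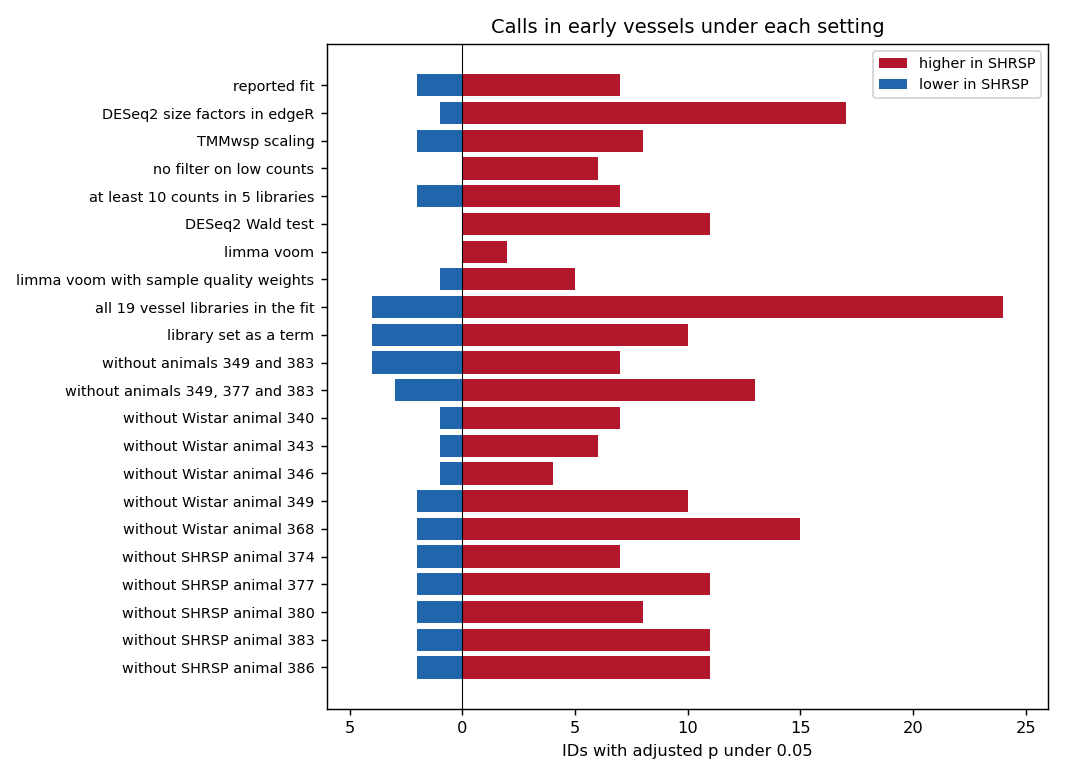
Number of IDs with an adjusted p under 0.05 in early vessels under each setting, higher in SHRSP to the right of 0 and lower to the left. The reported fit has 7 higher and 2 lower IDs, and the total runs from 2 in limma voom to 28 with all 19 vessel libraries in the fit.

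Vessel-enriched IDs as a group lay higher in SHRSP than the IDs tested in general. Of the 780, 616 passed the filter on low counts in the early vessels. Among these, 7 were called higher (1.14%, against 0.121% of all IDs tested) and 0 lower, and 46 had an unadjusted p under 0.05 with a higher level in SHRSP, against 3 with a lower level. Over all IDs tested, 1.43% had such a p with a higher and 0.708% with a lower level. No alternative called a vessel-enriched ID lower. Their median log2 fold was 0.84, with quartiles of 0.01 and 1.57, against a median of -0.04 over all 5795 IDs. In 464 of the 616 (75.3%) the fold was positive, against 48.7% of all IDs tested. In 17 (2.76%) all SHRSP libraries lay above all Wistar libraries, and in 4 (0.649%) below them. Over all IDs tested 27 lay above and 56 below. Without the filter the median over all 780 was 0.94. In limma voom the median of the 616 was smaller, at 0.48, and it was 0.49 with sample quality weights.

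Neuron-enriched IDs lay on the other side. Of the 629, 310 passed the filter, 0 were called in edgeR in either direction, and 1 had an unadjusted p under 0.05 with a higher and 2 with a lower level in SHRSP. DESeq2 and limma voom also called 0 of them. Their median log2 fold was -0.55, and 102 of the 310 (32.9%) were positive. Across the alternatives this median ran from -1.60 to -0.25, with -1.44 in limma voom. Folds also varied with mean level. In 4 equal parts of all IDs tested, the medians were -0.57, -0.08, 0.15 and 0.12 from the lowest part upwards. The part of mean level in the medians of the 2 lists was not tested. With the scaling of DESeq2 the medians were 1.08 for vessel-enriched and -0.36 for neuron-enriched IDs, each beside 0.16 for all IDs. With lists taken from the late Wistar animals alone, so that no SHRSP library took part in choosing them, the medians were 0.90 (446 of 551 IDs tested) and -0.48 (217 of 301), and the 7 higher calls were again all vessel-enriched.

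The strain fold followed the degree of vessel enrichment in the late animals. IDs with a log2 fold of vessels over neurons above 3 there (161 IDs) had a median log2 strain fold of 1.20 in early vessels. The median was 1.10 for those between 2 and 3 (150 IDs), 0.57 between 1 and 2 (398 IDs) and 0.08 between 0 and 1 (1801 IDs). On the neuron side it was -0.26 between -1 and 0 (2724 IDs) and -0.59 between -2 and -1 (473 IDs). The 31 IDs between -3 and -2 broke the order, with a median of 0.52. IDs within 1 library share its depth and its tissue piece, so this order is a description and carries no test.

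**Figure D4:**
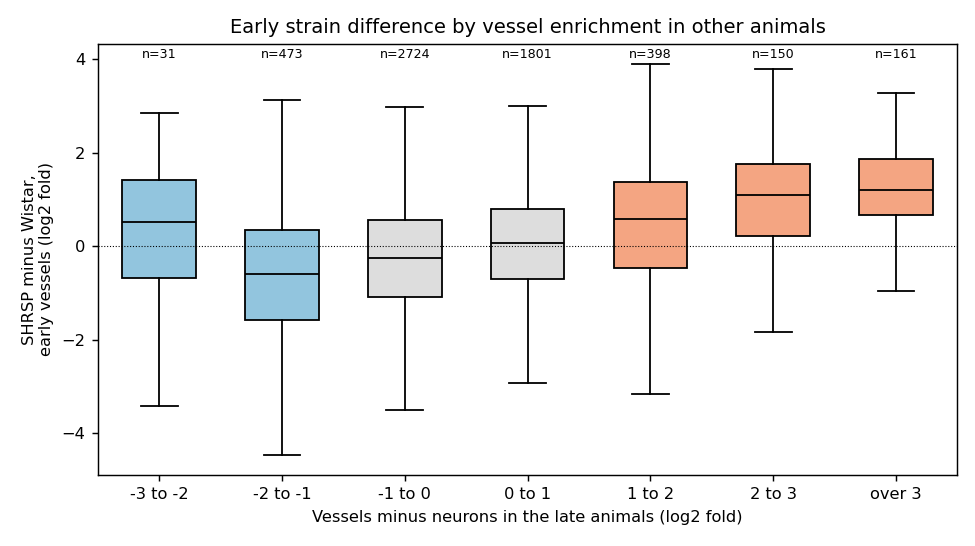
Log2 fold of SHRSP over Wistar in early vessels, for IDs grouped by their log2 fold of vessels over neurons in the late animals. Boxes show the median and quartiles, whiskers reach to 1.5 times the box height, points beyond them are not drawn, and a group of 2 IDs below -3 is left out; the median is -0.59 for -2 to -1 and 1.20 for over 3, and 0.52 for the 31 IDs from -3 to -2.

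The calls lay among abundant IDs. When the 5795 IDs were divided by mean level into 4 equal parts, all 9 calls lay in the highest part and 0 in the other 3, where 12, 6 and 22 IDs had an unadjusted p under 0.05 in edgeR, from the lowest part upwards. Counts of 0 made up 30.7% of the values in the lowest part and 1.53% in the highest. The biological coefficient of variation that edgeR fitted over all IDs was 1.67. Of 13576 IDs with a count in any of the 10 libraries, 1894 had one in all 10. Over the 1887 of these that were tested, the median SD of the log2 CPM was 2.67 in SHRSP and 0.91 in Wistar vessels. Over all 5795 IDs tested the gap was smaller, at 3.13 in SHRSP and 2.39 in Wistar vessels. No ID had counts in all 5 SHRSP and in 0 Wistar libraries, and 2 had the reverse.

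The same 9 IDs were next compared in the late vessels and in the early neurons, each fitted alone. In late vessels 1 of 10504 IDs passed (0.00952%; 274, or 2.61%, had an unadjusted p under 0.05 in edgeR), and it was ENSRNOG00000038999, at 391 ± 99.5 CPM in SHRSP (n = 5) and 72.8 ± 20.2 CPM in Wistar vessels (SD, n = 4; log2 fold 2.42, SE 0.30, adjusted p = 0.000216). The late SHRSP libraries ranged from 303 to 500.2 CPM and the late Wistar libraries from 54.1 to 99.8 CPM, without overlap. In early neurons, where 3 of 9789 IDs passed as higher (0.0306%) and 2 as lower (0.0204%), this ID was again higher, at 107 ± 28.8 CPM in SHRSP and 30.2 ± 13.2 CPM in Wistar neurons (log2 fold 1.82, SE 0.30, adjusted p = 0.0427). It was also higher in late SHRSP neurons (edgeR, log2 fold 1.70, SE 0.29, adjusted p = 0.0191), where 17 of 10154 IDs passed (0.167%). Its strain difference was thus found in both materials and at both stages.

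The other 8 calls did not pass in late vessels or in early neurons. ENSRNOG00000054890 measured 501 ± 172 CPM in late SHRSP and 266 ± 99.1 CPM in late Wistar vessels (log2 fold 0.91, SE 0.31), and 18.7 ± 2.54 CPM in early SHRSP and 19.99 ± 16.8 CPM in early Wistar neurons. ENSRNOG00000031033 measured 5622 ± 877 CPM in late SHRSP and 6195 ± 282 CPM in late Wistar vessels, and 4448 ± 961 CPM in early SHRSP and 4216 ± 1186 CPM in early Wistar neurons. ENSRNOG00000036802 measured 476 ± 354 CPM in late SHRSP and 390 ± 132 CPM in late Wistar vessels (log2 fold 0.29, SE 0.38), and 1133 ± 382 CPM in early SHRSP and 1247 ± 130.5 CPM in early Wistar neurons. In late vessels all 7 higher calls had positive folds, from 0.02 to 2.42, and the 2 lower calls had -0.14 and 0.29. The 7 are vessel-enriched IDs from a list chosen with these same late libraries. The mean share of that whole list was also higher in late SHRSP vessels (8.44%, against 6.96% in late Wistar vessels). The count of positive folds is therefore a description without a test.

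Whether the early vessel difference itself differed was tested for each ID. Against the late vessels, the difference of the strain folds did not pass for any of the 9 (adjusted p from 0.25 up to 1). Its size was 1.40 (SE 0.71) for ENSRNOG00000038999 and -2.65 (SE 0.70) for ENSRNOG00000036802 on the log2 scale. Against the early neurons of the same animals, with the animal as a block, it passed for ENSRNOG00000031033 (-0.90, SE 0.19, adjusted p = 0.011), while the third higher call stood at 4.34 (SE 1.02, adjusted p = 0.0508) and the other 7 did not pass (adjusted p from 0.258 up to 1). The difference of ENSRNOG00000031033 did not pass when animal 340, 346, 368, 383 or 386 was left out (adjusted p = 0.309, 0.964, 0.191, 0.119 and 0.261), at log2 differences of -0.88, -0.73, -0.77, -0.85 and -0.83. In all, 3 of 10281 IDs passed against neurons (0.0292%) and 1 of 11011 against late vessels (0.00908%). The calls against neurons were lost without the animal block (0 calls, 1053 IDs with an unadjusted p under 0.05) and without animals 349 and 383 (0 calls, 420 such IDs), where DESeq2 gave 682 calls over all 10 animals.

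**Figure D5:**
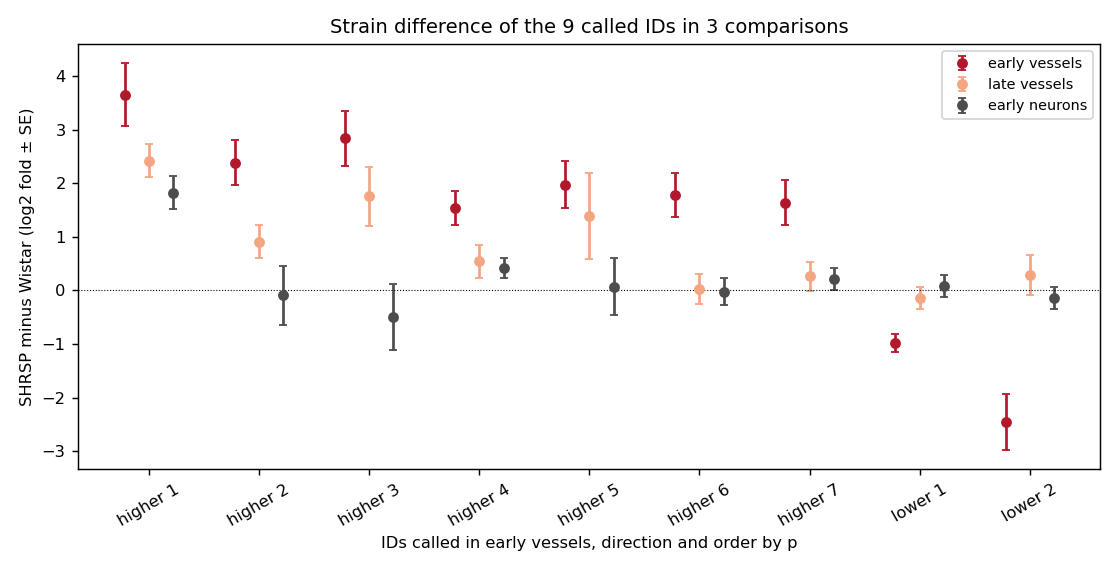
Log2 fold of SHRSP over Wistar, with its SE, of the 9 IDs called in early vessels, in early vessels, late vessels and early neurons. The higher call first in order of p is at 3.65, 2.42 and 1.82; the lower calls are at -0.97 and -2.45 in early vessels and between -0.14 and 0.29 elsewhere.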

How the data were processed

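RNA from laser-microdissected tissue was isolated with the PicoPure kit and made into QuantSeq forward 3' mRNA libraries, per the labels' protocols; such counts do not grow with transcript length. The authors deposited whole-number counts per Ensembl ID without normalization. Tools listed in the submitters' processing notes are DESeq2 1.18.1, HTSeq 0.6.1, FastQC 0.11.5 and STAR 2.5.3a, without roles. For genome build, annotation and strand setting, nothing is given in the sources used here.

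The 10 early vessel libraries were fitted alone in edgeR 4.0.16 (R 4.3.3): its filter on low counts, TMM scaling, robust quasi-likelihood F test, Benjamini-Hochberg adjustment over all IDs tested. A standard error is the fold divided by the root of F. Differences of strain folds were tested over the 20 early libraries with the animal as a block and over the 19 vessel libraries with 4 groups. Scripts were first tested on simulated data. Alternatives used limma 3.58.1 and DESeq2 1.42.0, other scalings and filters, and fewer animals.

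The number in each title was read as the animal, so a replicate is 1 animal and p-values cover animal, cutting and library together. Over the 10 animals, the correlation of a vessel and a neuron library's deviations from their group means ran up to 0.33 (median 0.05). The closest pair of libraries within a strain had a chi-square of 101 per degree of freedom. Counts are of reads, not of molecules. The rule for naming genes and 23 gene lists need gene names and were not applied; the 2 higher and 2 lower IDs of smallest p are named instead. Rules, lists and the animals left out were chosen with earlier results of these data known.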

Additional observations from a re-analysis of the deposited data

Results flagged for a closer look

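A single animal stood apart from the other 4 of its strain in 7 of 26 sets of 5 values looked at. The sets come from the same 10 libraries and are not independent, so this count was not tested against chance. SHRSP animal 383 had 17.7% of its counts in the most abundant ID, against 6.45% to 7.54% in the other SHRSP vessels. Wistar animal 349 had 40.6%, against 9.73% to 16.3% in the other Wistar vessels. Wistar animal 368 had 10.6% of its counts in vessel-enriched IDs, against 4.24% to 5.16% in the other Wistar vessels. The same animal was high for the fifth higher call, at 952 CPM against 125 to 268 CPM, and for the sixth, at 833 CPM against 238 to 381 CPM. SHRSP animal 374 had 2658 CPM of ENSRNOG00000054890, against 1072 to 1502 CPM in the other SHRSP vessels. Wistar animal 346 had 21803 CPM of ENSRNOG00000031033, against 8439.71 to 11306 CPM in the other Wistar vessels.

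The strain difference in early vessels differed from that in early neurons for 3 IDs in edgeR. For ENSRNOG00000015550 the difference of the log2 folds was 1.70 (SE 0.37, adjusted p = 0.011). It measured 5878 ± 2694 CPM in SHRSP and 2396 ± 1872 CPM in Wistar vessels, and 46.1 ± 13.8 and 63.0 ± 52.7 CPM in SHRSP and Wistar neurons (SD, n = 5 each). For ENSRNOG00000030478 it was -0.63 (SE 0.11, adjusted p = 0.0094), at 37476 ± 12198 CPM in SHRSP and 49335 ± 32778 CPM in Wistar vessels, and 32977 ± 15027 and 27183 ± 16075 CPM in SHRSP and Wistar neurons. For ENSRNOG00000031033 it was -0.90 (SE 0.19, adjusted p = 0.011). None of the 3 passed without animals 349 and 383 or without the animal block. Without those animals the differences were 1.17, -0.42 and -0.84, and without the block they were 1.75, -0.68 and -0.96, in the order given.

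The early strain difference differed from the late one in vessels for ENSRNOG00000061934, with a fitted difference of 18.82 on the log2 scale that is no bound, because 2 groups had no counts. It averaged 68.0 ± 136 CPM in early SHRSP vessels, 2 of 5 of them at 0 and 1 at 310.1 CPM, which carried most of that mean, and was at 0 in all 5 early Wistar vessels. In late animals it was at 0 in all 5 SHRSP vessels and averaged 9.26 ± 12.2 CPM in Wistar vessels, 1 of 4 of them at 0. In limma voom it did not pass (adjusted p = 0.455), and without early SHRSP animal 374 the comparison gave 0 calls.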

How the results depend on the processing

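The share of vessel-enriched IDs kept its direction in all 14 alternatives run, with differences of 5.94 to 7.95 percentage points (exact permutation test, p at most 0.0286). The lowest was without the 7 called IDs, an alternative chosen after seeing the data. Every SHRSP library lay above every Wistar library, so leaving animals out could not undo the separation and those p-values add no support. Calls in early vessels numbered 18 with the scaling of DESeq2, 2 in limma voom, 28 with all 19 vessel libraries, 14 with animals 349 and 383 as a term, 16 without animals 349, 377 and 383 (chosen after seeing the data), and 5 to 17 with single animals left out. The fold of each of the 9 calls kept its sign in all 21 alternatives. ENSRNOG00000038999 and ENSRNOG00000054890 did not pass in limma voom (adjusted p = 0.319 and 0.0882) and passed in the other 20. ENSRNOG00000031033 and ENSRNOG00000036802 each failed in 7 of 21 (adjusted p up to 0.889 and 0.480). Of the other higher calls, the third failed in 2, the fourth in 5, the fifth and the sixth in 8 each and the seventh in 11 of 21. The difference from early neurons gave 1 call without the filter, 682 in DESeq2, 5 in limma voom, 0 without animals 349 and 383, 0 without the animal block and 0 to 5 without single animals. The difference from late vessels gave 2 calls with the scaling of DESeq2, 3 without the filter, 128 in DESeq2, 0 in limma voom (763 with an unadjusted p under 0.05), 6 without animals 349 and 383 and 0 to 8 without single animals. For these counts the cause was not tested. The share of the most abundant ID differed by -6.07 percentage points, SHRSP minus Wistar, without animals 349 and 383 (exact permutation test, p = 0.0286). Without single animals it differed by -11.7 to -3.95 (exact permutation test, p from 0.0238 to 0.214). SHRSP and Wistar animals share no number, so no pairing between the strains applies, and the animal block entered the comparison with neurons alone. At equal depth, the smallest total, the expected number of IDs detected still ran from 4104 to 10027 in SHRSP and from 5419 to 11522 in Wistar vessels.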

Other observations

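The late vessel libraries helped to choose the vessel-enriched IDs, so their shares are given as values with no test: 8.44% ± 2.18 in late SHRSP vessels (n = 5, from 5.19% to 10.5%) and 6.96% ± 1.29 in late Wistar vessels (SD, n = 4, from 5.86% to 8.72%), with the strains overlapping. In neurons the same IDs took 2.82% ± 0.451 (early SHRSP) and 2.56% ± 0.318 (early Wistar; n = 5 each). The next 3 IDs by p that were higher in early SHRSP vessels had log2 folds of 2.11 to 2.31 and did not pass (adjusted p from 0.0557 to 0.0929); 2 of the 3 were vessel-enriched. The next 8 that were lower had adjusted p from 0.259 to 0.748, and 0 of them were in either list.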
